A study of Mus musculus with 14 samples.

Results

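The 10 genes described here carry out or mark reabsorption in the kidney proximal tubule: Slc9a3, Slc4a4, Slc34a1, Slc34a3, Slc5a2, Slc5a12, Slc7a9, Lrp2, Cubn and Kap. They were taken by symbol from the deposited gene count tables. All 10 were among the 20203 genes of the kidney table and 8 were among the 19660 genes of the liver table. Slc9a3 and Slc34a3 were not analysed here in liver. The animals were adult male mice of 12 weeks that carried a transgene of the human angiotensinogen gene with the -6A haplotype, labelled TG and Hap -6A. The groups were kidney on a normal diet (3 libraries), kidney on high salt (3), liver on a normal diet (4) and liver on high salt (4). All groups shared the transgene and the haplotype, and no group without them was analysed here. The labels give neither the salt content nor the length of the diet, and nothing says that the libraries came from separate animals, so p-values measure only the spread between these samples.

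The proximal tubule takes back most of the sodium, bicarbonate, phosphate, glucose, amino acids and protein that the glomerulus filters. Sodium entry through apical carriers, kept up by the sodium pump on the other side of the cell, drives most of this uptake, while filtered proteins are bound by large receptors and taken in by endocytosis. Salt intake and angiotensin II are known to act on sodium transport in this segment, and androgens are known to control several of its genes, Kap among them.

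Kidney libraries held 16046094 to 22004927 counts and liver libraries 37267778 to 51487382. Levels are given as CPM, counts per 1000000 counts after scaling of library sizes within a tissue. Summed CPM of 5 hepatocyte markers lay between 46290 and 106200 in liver and between 58.8 and 111.3 in kidney, so both tissue labels matched their defining genes. Mitochondrial transcripts took 23.5% to 41.2% of the kidney counts, with the highest share in normal diet library 1, which stood apart for several of the 10 genes. In liver the shares were 2.30%, 2.06%, 29.6% and 18.7% in normal diet libraries 1 to 4, and 11.3% to 19.2% on high salt. Liver libraries HS5 and HS6 (high salt liver columns are called by the numbers they carry) were much alike: a chi-square of their counts averaged 1.84 per gene, while the 11 remaining pairs of libraries within a diet gave 11.3 to 66.9. For liver on the normal diet it was 11.3 between libraries 1 and 2, 29.7 between 3 and 4, and 53.7 to 66.9 across these pairs.

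In RefSeq, 8 of the 10 genes had a promoter entry in the table used. The 250 bases before each start site were searched on both strands for the TATA box TATAAA, the element that places the start of transcription in many strongly expressed genes. It was found in 12.4% of all 32851 promoters. Among the 8 genes it was in the Kap promoter only, 31 to 26 bases before the start site. A match is a description of the letters and not a binding site. The runs below are on GRCm38.p6, written 5′ to 3′ on the strand of the gene, with the TATA box in capitals. They are shown because Slc34a1 and Kap had the highest levels per length of the 10 genes, and because Lrp2 and Cubn, whose levels moved together, can be compared. Slc34a1 lies at chr13:55399398-55399647 on the plus strand, Lrp2 at chr2:69586066-69586279 on the minus strand, Cubn at chr2:13491877-13492126 on the minus strand, and the 30 bases around the TATA box of Kap at chr6:133853681-133853710 on the minus strand. The run of Slc34a1 lies inside the bounds of its GENCODE gene but outside its exons, those of Lrp2 and Cubn lie before the gene, and that of Kap lies in the first exon of a GENCODE transcript that starts further upstream.
Slc34a1: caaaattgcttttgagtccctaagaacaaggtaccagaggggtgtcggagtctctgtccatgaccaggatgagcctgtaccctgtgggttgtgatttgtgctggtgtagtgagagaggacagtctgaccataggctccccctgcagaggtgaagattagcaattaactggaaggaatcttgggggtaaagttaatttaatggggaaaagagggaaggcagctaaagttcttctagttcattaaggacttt
Lrp2: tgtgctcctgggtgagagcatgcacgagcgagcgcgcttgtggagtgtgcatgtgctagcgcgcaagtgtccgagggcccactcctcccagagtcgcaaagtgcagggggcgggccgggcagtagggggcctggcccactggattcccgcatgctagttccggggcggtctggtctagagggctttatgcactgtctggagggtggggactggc
Cubn: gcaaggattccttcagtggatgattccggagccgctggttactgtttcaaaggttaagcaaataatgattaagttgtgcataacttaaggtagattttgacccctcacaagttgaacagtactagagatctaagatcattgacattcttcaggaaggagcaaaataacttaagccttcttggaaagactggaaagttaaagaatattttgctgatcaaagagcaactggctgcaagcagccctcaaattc
Kap: gagtacaggatgTATAAAagcccaggagga
G and C made up 46.4% of the bases in the Slc34a1 promoter, 66.4% in that of Lrp2, 39.6% in that of Cubn and 45.6% in that of Kap, against a median of 52.4% over all promoters. The promoters of Lrp2 and Cubn thus lie on either side of that median, and the TATA box letters are in neither window.

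No gene of the 10 differed between the diets in kidney. With edgeR's quasi-likelihood test 0 of 10 had an adjusted p-value under 0.05 (background 0% of 15847 genes tested), 0 of 10 had an unadjusted p-value under 0.05 (background 2.01%), and DESeq2 called 0 of 10 (background 0.0698% of 18628 genes). The adjusted p-value was 0.9996 for each of the 10 in edgeR. The diets overlapped in all 10, while they did not overlap in 6.88% of the genes tested. On high salt 9 of the 10 fold changes were negative and 1 was positive, with a median log2 fold change of -0.11 beside -0.02 over all genes tested. Of the 15847 genes tested 8511 were negative. The 10 genes share the same libraries and several of the negative signs turned under alternatives given below, so nothing is read from the 9 of 10. The 95% intervals set different limits on each gene. That of Kap was the widest, from 0.466-fold to 1.86-fold, while that of Slc5a2 ran from 0.634-fold to 1.22-fold and that of Slc4a4 from 0.621-fold to 1.24-fold. In whole kidney RNA, fewer proximal tubule cells and less RNA per cell cannot be told apart.

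**Figure D1:**
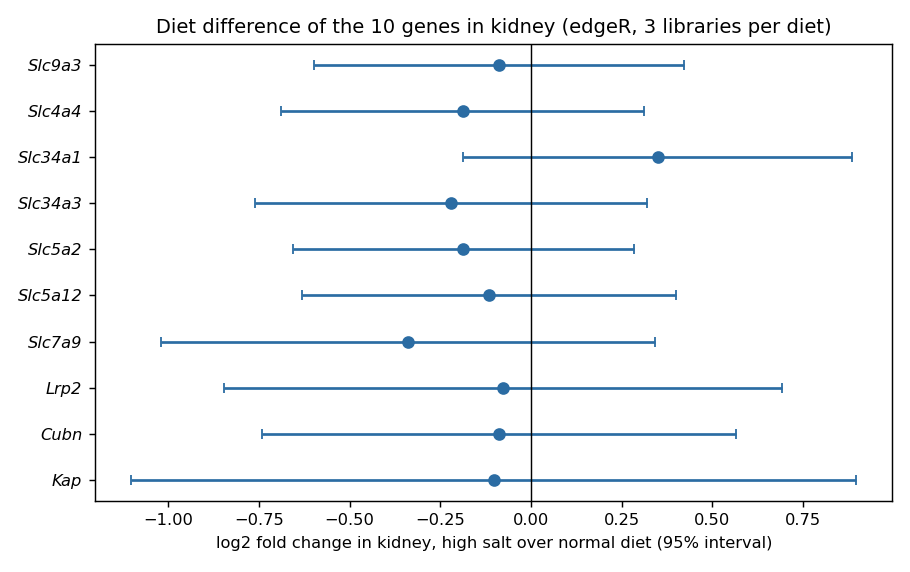
Log2 fold change of high salt over normal diet in kidney for the 10 genes (points) with 95% intervals (bars), from edgeR with 3 libraries per diet. All 10 intervals include 0; Slc34a1 is the only gene with a positive estimate (0.35), and Kap has the widest interval.

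Slc9a3 encodes NHE3, the apical sodium/proton exchanger through which much of the sodium of this segment enters the cell (chromosome 13, 74121457 to 74169442, plus strand; here and below GENCODE M21, GRCm38). Its kidney level was 69.3, 59.0 and 53.96 CPM in normal diet libraries 1, 2 and 3, and 71.5, 52.0 and 47.99 CPM in high salt libraries 1, 2 and 3. Library 1 was the highest in each diet, and the diets overlapped. The log2 fold change was -0.09 ± 0.22 (SE; edgeR unadjusted p = 0.701), and it was 0.02 without normal diet library 1 and without high salt library 3.

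Slc4a4 encodes NBCe1, which carries sodium and bicarbonate out of the cell on the blood side (chromosome 5, 88886818 to 89239653, plus strand). It measured 573, 715 and 636 CPM on the normal diet and 578, 636 and 473 CPM on high salt. Normal diet library 2 was the highest and high salt library 3 the lowest. On the log2 scale the fold change was -0.19 ± 0.22 (SE; edgeR unadjusted p = 0.411).

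Slc34a1 encodes NaPi-IIa, the main apical sodium-phosphate cotransporter in mice (chromosome 13, 55398187 to 55415592, plus strand). Its levels were 1038, 745 and 778 CPM on the normal diet and 1202, 927 and 1132 CPM on high salt. Of the normal diet libraries, 2 and 3 lay under every high salt library and library 1 lay among them. The log2 fold change was 0.35 ± 0.23 (SE; edgeR unadjusted p = 0.172), the smallest p-value of the 10. Without normal diet library 1 it was 0.52, with an edgeR adjusted p of 0.2995. Slc34a3, which encodes the second phosphate carrier NaPi-IIc (chromosome 2, 25228898 to 25234364, minus strand), measured 4.80, 4.80 and 3.82 CPM on the normal diet and 4.20, 3.91 and 3.41 CPM on high salt, with a log2 fold change of -0.22 ± 0.23 (SE). Per kilobase of exon the normal diet level of Slc34a1 was 182.5 ± 34.3 CPM and that of Slc34a3 was 1.90 ± 0.239 CPM (SD, n = 3), and all 6 libraries had Slc34a1 above Slc34a3.

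Slc5a2 encodes SGLT2, the sodium-glucose cotransporter of the early proximal tubule and the target of the gliflozin drugs (chromosome 7, 128265657 to 128272430, plus strand). It measured 53.5, 73.1 and 72.3 CPM on the normal diet and 63.8, 58.4 and 52.4 CPM on high salt. Normal diet library 1 lay below libraries 2 and 3 of its diet and inside the high salt range. On the log2 scale the fold change was -0.19 ± 0.20 (SE; edgeR unadjusted p = 0.387). Slc5a12, a sodium-coupled lactate carrier (chromosome 2, 110597298 to 110647779, plus strand), measured 72.2, 88.95 and 73.1 CPM on the normal diet and 80.9, 80.6 and 54.7 CPM on high salt. High salt library 3 alone lay under the other 5 libraries. Its log2 fold change was -0.12 ± 0.22 (SE), and it was 0.05 without that library.

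Slc7a9 encodes the light chain of the apical cystine and dibasic amino acid exchanger, whose loss causes cystinuria (chromosome 7, 35448796 to 35466036, plus strand). It measured 38.7, 80.0 and 82.1 CPM on the normal diet and 47.4, 55.3 and 55.99 CPM on high salt. Normal diet libraries 2 and 3 lay above all high salt libraries and library 1 lay below all of them. The log2 fold change was -0.34 ± 0.30 (SE; edgeR unadjusted p = 0.283). Without normal diet library 1 it was -0.62 with an edgeR adjusted p of 0.222, the lowest adjusted p of any of the 10 in kidney under any alternative tried.

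Lrp2 encodes megalin and Cubn encodes cubilin, the paired receptors that retrieve albumin, vitamin carriers and hormones from the filtrate. Megalin also takes up filtered angiotensinogen. Lrp2 (chromosome 2, 69424340 to 69586065, minus strand) measured 1507, 760 and 677 CPM on the normal diet and 1021, 773 and 996 CPM on high salt. Cubn (chromosome 2, 13276338 to 13491813, minus strand) measured 290, 175 and 154 CPM on the normal diet and 217, 161.8 and 204 CPM on high salt. In both genes normal diet library 1 was the highest of the 6 and normal diet library 3 the lowest, so the normal diet spanned the whole high salt range. The log2 fold change of Lrp2 was -0.08 ± 0.33 (SE; edgeR unadjusted p = 0.822) and became 0.37 without normal diet library 1. That of Cubn was -0.09 ± 0.28 (SE; edgeR unadjusted p = 0.763) and became 0.24 without the same library. Across the 6 libraries Lrp2 and Cubn had a Pearson correlation of log2 CPM of 0.99, given as a description of 6 libraries that differ in depth and in the trend along gene length described below.

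Kap encodes kidney androgen-regulated protein, a small secreted protein of unsettled function that is widely used as a proximal tubule marker (chromosome 6, 133849851 to 133853762, minus strand). It measured 19938, 53492 and 55657 CPM on the normal diet and 28499, 55382 and 36320 CPM on high salt. Normal diet library 1 was the lowest and normal diet library 3 the highest, and Kap alone took 1.91% to 5.48% of all kidney counts. On the log2 scale the fold change was -0.10 ± 0.43 (SE; edgeR unadjusted p = 0.819). The SD of its log2 CPM over the 6 kidney libraries was 0.61, above that of 90.5% of the genes tested, while the SDs of the other 9 genes lay between 0.17 and 0.42. Kap ran against the receptors across the 6 libraries, with a correlation of -0.97 with Lrp2, and with Slc7a9, with 0.87.

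**Figure D2:**
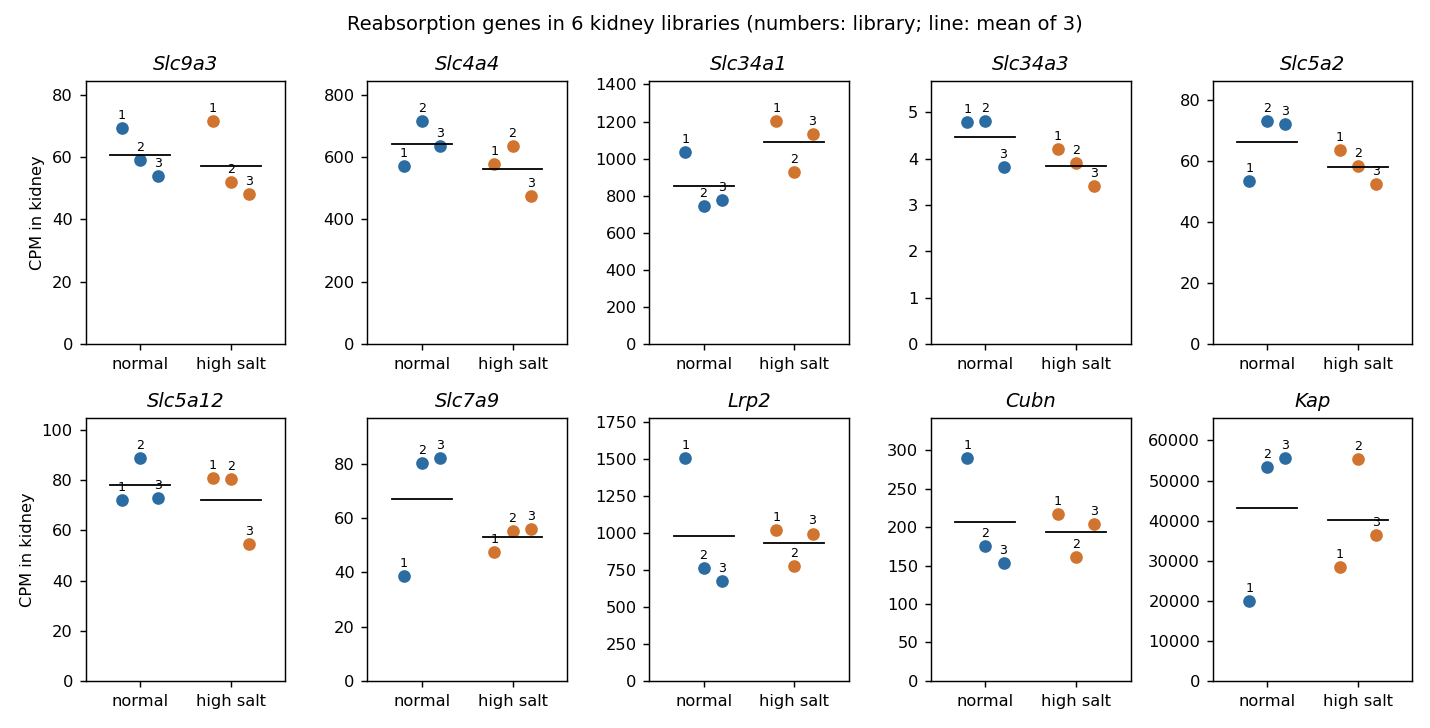
CPM of the 10 genes in the 6 kidney libraries, 1 panel per gene with its own axis from 0. Points are libraries with their number, in blue for normal diet and orange for high salt, and lines are means of 3; normal diet library 1 is highest for Lrp2 and Cubn and lowest for Kap and Slc7a9.

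Levels of different genes were compared per kilobase of exon. On the normal diet Kap stood at 60862 ± 28327 CPM per kilobase (SD, n = 3) and Slc34a1 came next at 182.5 ± 34.3. Slc4a4 followed at 59.3 ± 6.58 and Lrp2 at 58.8 ± 27.4, which do not differ beyond their spread. Slc7a9 stood at 25.02 ± 9.14, Slc5a2 at 22.9 ± 3.83, Slc5a12 at 19.2 ± 2.32, Cubn at 13.8 ± 4.91 and Slc9a3 at 11.04 ± 1.42. The SDs are of the spread between libraries, and these genes were not compared with each other library by library. Slc34a3 was the lowest, at 1.90 ± 0.239. The endocytic partners thus differed in level, Lrp2 lying above Cubn in all 6 libraries, from 40.5 to 90.2 CPM per kilobase against 10.3 to 19.4.

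For Lrp2, Cubn, Kap and Slc7a9 the spread inside the normal diet followed library 1. Not all of the 10 genes did so: library 3 stood apart for Slc34a3 and library 2 for Slc5a12. Normal diet library 1 was 2.10-fold the mean of libraries 2 and 3 for Lrp2 and 1.77-fold for Cubn, but 0.365-fold for Kap and 0.481-fold for Slc7a9. Over all genes with a known exon length the same ratio rose with length, from a median of -0.64 on the log2 scale in the shortest of 5 equal groups of genes (median 0.98 kb of exon) through -0.14, 0.06 and 0.19 to 0.34 in the longest (median 9.44 kb). Kap has 0.707 kb of exon, the least of the 10, Lrp2 has 16.7 kb and Cubn 14.9 kb. Slc7a9 has 2.68 kb and lay further from its length group than the others, at -1.06 on the log2 scale where the group median was -0.14. Slc4a4 also lay off the trend, at -0.24 with 10.8 kb where the group median was 0.34. Kap, Lrp2 and Cubn moved with the trend but beyond their group medians. Kap was at -1.45 where the median was -0.64, and Lrp2 at 1.07 and Cubn at 0.82 where it was 0.34. With each library's trend along exon length taken out, a fit added after the values had been seen, the log2 fold change was 0.07 for Lrp2, 0.03 for Cubn, -0.07 for Kap, -0.36 for Slc7a9 and 0.35 for Slc34a1, and 0 of 10 passed. Other features of library 1 moved as well. It held the highest summed CPM of thick ascending limb markers (2802 against 1697 to 2232 in the other 5) and of late proximal tubule markers (2423 against 1431 to 1949), and the lowest of endothelial markers (99.3 against 142.1 to 157.1) and immune markers (12.5 against 19.2 to 31.6), and of podocyte markers (110.6 against 138.4 to 171.3). The lists did not move as one. Against the mean of normal diet libraries 2 and 3, library 1 had 1.62-fold Umod but 0.629-fold Cldn16 in the thick ascending limb list, 2.38-fold Atp11a but 1.04-fold Slc7a13 in the late proximal tubule list, and 0.50-fold Emcn but 1.19-fold Cdh5 in the endothelial list. All 4 thick ascending limb, 5 late proximal tubule, 4 endothelial and 5 immune markers were measured, and none was at 0 in any kidney library. With mitochondrial genes left out, 0 of the 10 genes passed. The part of cell composition in these levels was not tested.

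**Figure D3:**
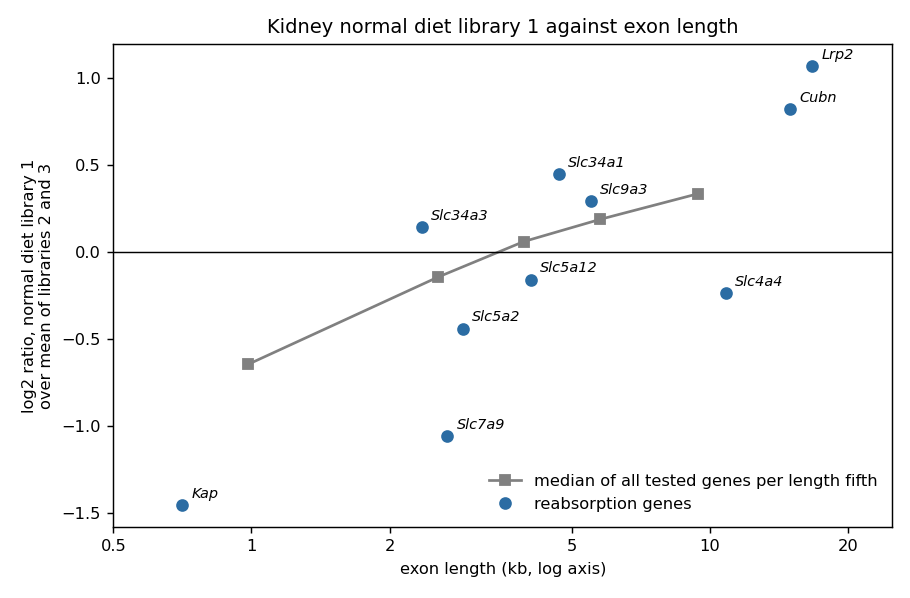
Log2 ratio of kidney normal diet library 1 over the mean of libraries 2 and 3 (vertical axis) against exon length in kilobases (horizontal axis, log scale). Circles are the 10 genes and squares the median of all tested genes in each of 5 length groups; Lrp2 and Cubn sit at the long, high end and Kap at the short, low end.

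The other genes of these pathways were taken from 7 lists of 79 genes, of which 77 were tested in kidney. Of these 0 passed in edgeR and 0 in DESeq2, and 3 of 77 had an unadjusted p under 0.05, beside 2.01% of all genes tested. Their median log2 fold change was 0.03, beside -0.02 over all genes. Among phosphate and sulfate genes 0 of 11 passed. There Slc9a3r1, the scaffold NHERF1 that holds NaPi-IIa in the membrane, had a log2 fold change of 0.37 ± 0.32 (SE) and its relative Pdzk1 had 0.26 ± 0.29. Among glucose, lactate and dicarboxylate carriers 0 of 9 passed, with 0.39 ± 0.30 for the urate exchanger Slc22a12 and 0.35 ± 0.31 for the dicarboxylate carrier Slc13a3.

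Among amino acid and peptide carriers 0 of 14 passed. Slc6a20a, a sodium-coupled proline carrier, measured 7.93, 15.1 and 16.1 CPM on the normal diet and 20.8, 20.5 and 19.7 CPM on high salt (log2 fold change 0.64 ± 0.27, SE; edgeR unadjusted p = 0.0476, adjusted p = 0.9996). Its diets did not overlap, which held for 6.88% of all genes tested, and the same was seen for Slc7a7, the light chain of the basolateral exchanger that passes on dibasic amino acids, at -0.32 ± 0.18. Of the sodium, proton and bicarbonate genes 0 of 11 passed. Car2, the cytosolic carbonic anhydrase, had -0.30 ± 0.21, and the sodium/proton exchanger Slc9a8 had -0.31 ± 0.36. Of the endocytosis genes 0 of 9 passed, with 0.18 ± 0.21 for Lrpap1, the chaperone of megalin.

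Among regulators 0 of 14 passed. Cyp24a1, which breaks down active vitamin D, measured 33.9, 47.5 and 26.6 CPM on the normal diet and 19.5, 24.8 and 21.5 CPM on high salt. All high salt libraries lay below all normal diet libraries (log2 fold change -0.72 ± 0.25, SE; edgeR unadjusted p = 0.019, adjusted p = 0.9996). Among androgen-responsive genes 0 of 9 passed, although their median log2 fold change was 0.35 and 7 of 9 were positive. In this list Cyp2e1, a cytochrome P450 of the proximal tubule, measured 1224, 879 and 787 CPM on the normal diet and 1523, 1339 and 1407 CPM on high salt (log2 fold change 0.56 ± 0.24, SE; edgeR unadjusted p = 0.0464, adjusted p = 0.9996), and the organic anion carrier Slco1a1 had 0.58 ± 0.30. Kap, also androgen-responsive, had -0.10.

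**Figure D4:**
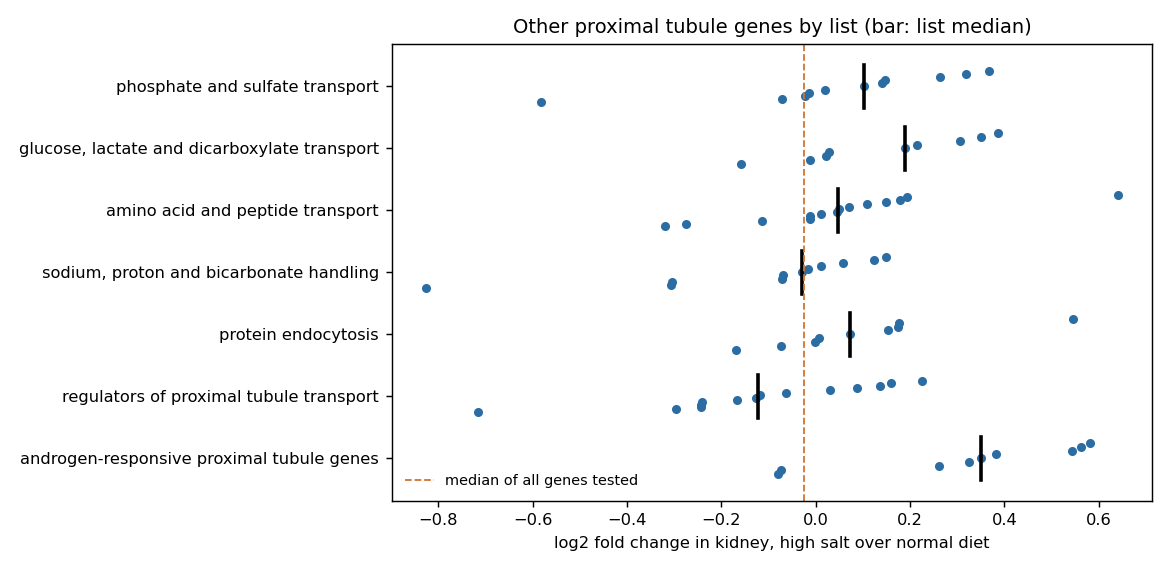
Log2 fold change of high salt over normal diet in kidney for the 77 tested genes of 7 lists, 1 point per gene, with the list median as a bar and the median of all genes tested as a dashed line. Androgen-responsive genes have the highest list median (0.35) and regulators the lowest (-0.12); no gene passed the test.

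The genes whose kidney pattern was most like the mean pattern of the 10 were sought among 7388 genes of at least 10 CPM. They were Gm44120 (Pearson r 0.97 over 6 libraries), Dnajc18 (0.97), mt-Atp6 (0.97), Gm10925 (0.96) and Pde7a (0.96). They are named as a description of 6 libraries that share depth and length trends. The mean of the 10 joins genes that ran against each other, such as Lrp2 and Kap with a correlation of -0.97 and Slc34a1 and Slc7a9 with -0.82. It is therefore not a pattern that all 10 genes shared.

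In liver on the normal diet the 8 genes were measured far below their kidney level, Slc4a4 least so. edgeR called 8 of 8 higher in kidney (background 28.5% of 15688 genes called in that direction). Slc4a4 and Lrp2 apart, the genes entered this test through their kidney counts and had to differ, so nothing is read from that count. For this comparison CPM values were scaled over both tissues. Slc4a4 measured 522.7 ± 57.96 CPM in kidney (SD, n = 3) and 37.3 ± 10.7 CPM in liver (SD, n = 4), a 13.7-fold ratio (log2 fold change 3.80 ± 0.32, SE; edgeR adjusted p = 7.24e-06). Lrp2 measured 799.5 ± 370.5 CPM and 0.712 ± 0.197 CPM, a 1152-fold ratio (edgeR adjusted p = 3.74e-07).

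The remaining 6 genes had between 0 and 135 counts summed over the 4 normal diet liver libraries. Kap was 33360-fold higher in kidney, resting on 133 counts in liver library 3 and 2 in library 4 (edgeR adjusted p = 0.000478). Slc34a1 was 5949-fold higher, with 15 liver counts of which 13 were in library 3, and Cubn 5396-fold higher, with 4. Without liver library 3 the fitted log2 fold change moved from 14.79 to 20.5 for Kap and from 12.43 to 14.84 for Slc34a1, which then rest on 2 liver counts each, and from 10.91 to 13.61 for Slc5a2, which then has 0; such fitted values depend on the count that edgeR adds. Slc5a2 and Slc7a9 had 3 counts each, for ratios of 2310 (95% counting interval 791 to 11200) and 2335 (799 to 11320). Slc5a12 had 0 counts in the 4 libraries and was at least 2722-fold higher in kidney, taking 3 counts over the group as the floor. These intervals and the floor cover counting error only.

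High salt against normal diet in liver was tested by edgeR for the 3 of 8 genes that passed its filter on low counts. edgeR called 0 of 3 (background 1.00% of 15130 genes, 0.595% higher and 0.410% lower), with 2 of 3, Kap and Lrp2, under an unadjusted p of 0.05 (background 21.2%). Kap entered the test through the high salt libraries where it is high, so nothing is read from the 2 of 3. DESeq2 gave 4 of the 8 genes an adjusted p and called 1, Lrp2 (background 6.94% of 15761 genes). Unadjusted it had 3 of 8 under 0.05, Cubn, Lrp2 and Slc34a1. The share of all genes under that limit in DESeq2 was not computed, so nothing is read from this count. Cubn and Slc34a1 did not pass the edgeR filter and had most of their counts in HS7 and HS8. Slc4a4 measured 27.3, 23.2, 29.5 and 46.7 CPM in normal diet libraries 1 to 4 and 28.8, 27.9, 30.5 and 30.8 CPM in HS5 to HS8. The high salt libraries lay close together inside the normal diet range. Its log2 fold change was -0.10 ± 0.21 (SE; edgeR adjusted p = 0.804). With each library's trend along exon length taken out it was -0.41 ± 0.17 (edgeR adjusted p = 0.231).

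Lrp2 had 20, 22, 27 and 20 counts in normal diet liver libraries 1 to 4 and 56, 58, 108 and 109 counts in HS5 to HS8. These are 0.476, 0.600, 0.849 and 0.481 CPM against 0.994, 1.20, 2.25 and 1.93 CPM. All high salt libraries lay above all normal diet libraries, which held for 12.5% of the genes tested in 1 direction or the other. The log2 fold change was 1.41 ± 0.35 (SE; edgeR unadjusted p = 0.00245), and the edgeR adjusted p of 0.0852 missed the threshold. Over the alternatives the adjusted p ran from 0.00656 with DESeq2 to 0.298 with HS7 and HS8 left out, where the log2 fold change was 0.87. With each library's trend along exon length taken out, a fit chosen after seeing the data, the log2 fold change was 0.98 (edgeR adjusted p = 0.178). Without normal diet library 3 it was 1.604 and passed in edgeR (adjusted p = 0.0457, background 4.94%), and with the like libraries HS5 and HS6 summed it was 1.54 (adjusted p = 0.200).

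Kap had 0, 0, 133 and 2 counts in normal diet liver libraries 1 to 4 and 87, 84, 1799 and 556 counts in HS5 to HS8. HS7 held 37.4 CPM and normal diet library 3 held 4.18 CPM, more than HS5 and HS6, so the diets overlapped. On the log2 scale the fold change was 3.63 ± 1.57 (SE; edgeR adjusted p = 0.221). Without normal diet library 3, the one with most Kap of its group, it was 9.35 with an edgeR adjusted p of 0.0376 (background 4.94%). The normal diet then holds 0, 0 and 2 counts and the value depends on the count that edgeR adds, so nothing is read from that pass. Without HS7 and HS8 the log2 fold change was 0.66 with an edgeR adjusted p of 0.868. Kap passed the filter on low counts through the high salt libraries.

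The other kidney genes were high in the same liver libraries as Kap. Slc34a1 had 0, 0, 13 and 2 counts on the normal diet and 9, 9, 198 and 113 on high salt. Its log2 fold change was 3.84 ± 1.72 (SE) with DESeq2 (adjusted p = 0.149) and 3.91 ± 1.29 in edgeR without the filter (adjusted p = 0.176). Cubn had 0, 2, 2 and 0 and then 2, 3, 18 and 10. Slc5a12 was found in HS7 (11 counts) and HS8 (1 count) alone, and Slc5a2 in normal diet library 3 (3 counts), HS7 (10) and HS8 (1). Slc7a9 had no more than 4 counts in any liver library.

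These counts were set against the mean kidney level for 13 genes, the 7 of the 8 genes other than Slc4a4 and 6 further genes of high kidney level (Slc22a6, Slc22a8, Slc7a13, Miox, Umod and Slc12a1). In HS7 the 13 genes stood at a median of 0.334% of their kidney level, from 0.115% to 0.603%. The median was 0.0858% in HS8, 0.0444% in normal diet library 3, 0.0151% in HS6 and 0.00554% in HS5, with 0, 1, 2 and 3 of the 13 genes at 0 counts. Normal diet libraries 1, 2 and 4 had a median of 0, with 10, 10 and 7 of the 13 genes at 0 counts. Umod and Slc12a1, which define the thick ascending limb and not the proximal tubule, had 68 and 22 counts in HS7. Slc4a4 did not follow this order, at 5.83% to 10.8% of its kidney level in all 8 libraries. Lrp2 was present at 0.0699% to 0.0952% also in normal diet libraries 1, 2 and 4, where Kap and Slc34a1 had 2 counts or fewer. In HS5 and HS6 Lrp2 stood at 0.155% and 0.186% of its kidney level while Kap stood at 0.00554% and 0.00618%. The summed level of 4 stromal markers in liver was 13.7 to 25.3 CPM on high salt and 5.59 to 14.1 CPM on the normal diet, so the diets overlapped. That of 5 hepatocyte markers was 87510 to 106200 CPM on high salt and 46290 to 81420 CPM on the normal diet. That of 5 late proximal tubule markers was 160.9 to 206.2 CPM on high salt and 470 to 557.3 CPM on the normal diet. Most of it was Cyp7b1, also a liver gene, with means of 156.8 and 475.2 CPM. Early proximal tubule markers, 3 of them members of the 10, summed to 4.83 to 11.97 CPM on high salt and 2.81 to 4.85 CPM on the normal diet. For thick ascending limb markers the sums were 0.083 to 2.08 CPM and 0 to 0.472 CPM. In both of these lists the diets overlapped. The part of kidney RNA or of cell composition in the liver difference of Lrp2 was not tested.

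**Figure D5:**
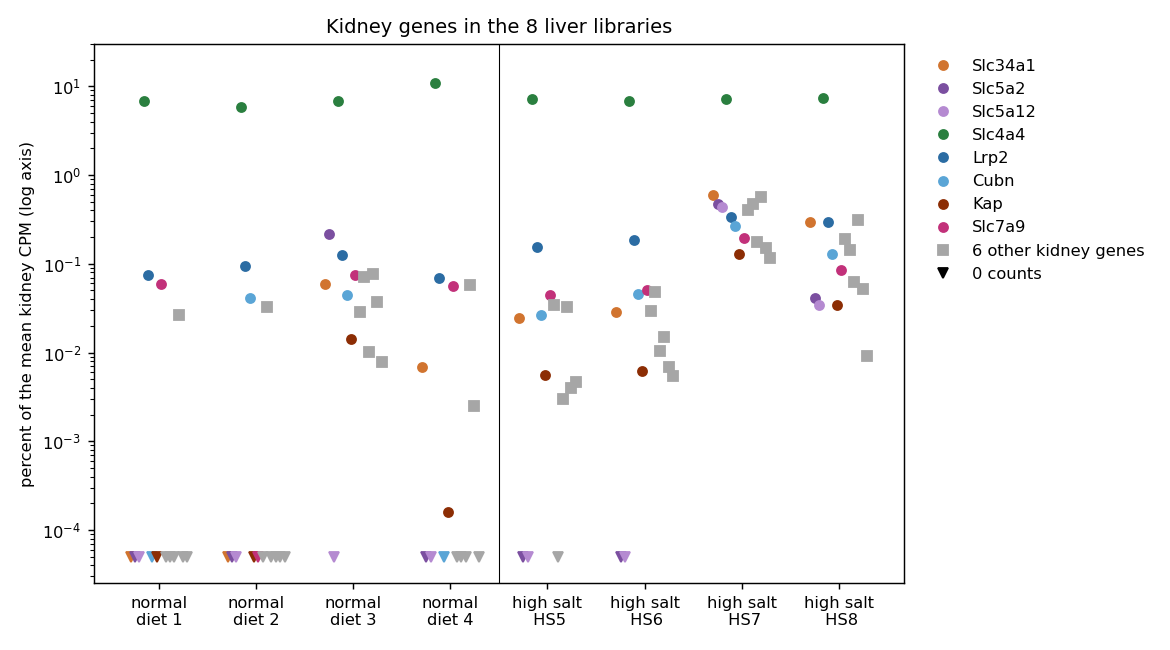
Level of 14 kidney genes in each of the 8 liver libraries as a percent of their mean kidney CPM (vertical log axis); circles are the 8 reabsorption genes, squares 6 other kidney genes and triangles 0 counts. HS7, HS8 and normal diet library 3 have the highest medians, while Slc4a4 stays between 5.83% and 10.8% throughout and Lrp2 is present in every library.

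The diet differences of kidney and liver were compared in 1 fit of all 14 libraries, as the kidney log2 fold change minus that of liver. edgeR called 0 of 8 genes (background 0% of 16633 genes) and DESeq2 0 of 8 (background 0.969%). In edgeR 4 of 8 had an unadjusted p under 0.05 (background 10.1%): Lrp2 at -1.49 ± 0.49 (SE; adjusted p = 0.328), Slc34a1 at -3.58 ± 1.38, Cubn at -2.53 ± 0.97 and Slc5a12 at -4.34 ± 1.88. Kap had -3.73 ± 1.96 (edgeR adjusted p = 0.532). Of these genes Lrp2 alone had at least 20 counts in every liver library, and the others entered this fit through their kidney counts. Slc4a4, measured well in both tissues, had a difference of -0.10 ± 0.32 (edgeR adjusted p = 0.934).

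Of the list genes 58 were tested in liver and 1 passed, beside 1.00% of all genes tested. Cyp7b1, an oxysterol hydroxylase listed with the androgen-responsive kidney genes and also a liver gene, fell from 475.2 ± 42.9 CPM to 156.8 ± 22.0 CPM on high salt (SD, n = 4 each; log2 fold change -1.599, edgeR adjusted p = 0.00517). In kidney it measured 167.1 ± 76.2 and 217.9 ± 73.8 CPM (SD, n = 3 each), with a log2 fold change of 0.38 ± 0.37 (SE). The difference of these diet effects between the tissues was 1.98 on the log2 scale (edgeR adjusted p = 0.116), and 0 list genes passed that test.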

How the data were processed

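Expected counts are estimated read numbers, which the authors obtained by assigning reads to genes with an expectation-maximisation method, per the file headers. The submitters' processing notes name Partek 7.0, STAR 2.5.3a, DESeq2 and the build mm10, with no role or order. A second pair of deposited tables holds a normalized linear signal for each gene; its normalization is not given in the sources used here. Libraries were made from total RNA with a SMARTer mRNA kit, per the labels' protocols. Of the per-sample columns, 0 went unused. The 4 columns of liver on high salt match no titled sample and were used as unnumbered replicates. Every gene in the count tables totals at least 10 counts, and values of 1000000 or more were written with 3 significant digits, which touches Kap in 1 library.

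After rounding, all genes passing filterByExpr were fitted by the quasi-likelihood method of edgeR 4.0.16 with TMM sizes (R 4.3.3), with diet as the term within a tissue, tissue within the normal diet, or their interaction. A call is a Benjamini-Hochberg adjusted p under 0.05. Intervals are at 95% and a floor is 3 counts; on counts they allow for counting error alone, since PCR copies of a molecule were not told apart. Exon lengths are unions of GENCODE M21 exons, found for 98.1% of the kidney genes tested. File starts equalled those of GENCODE for 9 of the 10 genes (not Slc4a4), and file stops lay 1 base further in all 10. Alternatives were DESeq2 1.42.0, its size factors in edgeR, no filter, mitochondrial genes left out, limma 3.58.1 on log2 of the deposited normalized values plus a pseudocount of 1 or 0.1 (mean of at least 10), a replicate block, HS5 and HS6 summed, and each library left out. Leaving out Kap, leaving out HS7 and HS8 together and the exon length offset were chosen after seeing the data. The fits were tested on simulated data.

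The 10 genes and the lists were chosen with earlier results of these data known. By rule all 10 genes are named, and from each list the genes past the threshold or else the 2 of at least 5 CPM with the smallest p in kidney, with the 5 genes most like the members' mean pattern. Some items of the rule are not reported here.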

Additional observations from a re-analysis of the deposited data

Results flagged for a closer look

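In liver, where groups held 4 libraries, 15 groups of values of the 8 genes were checked for a single library far from the rest, and 5 had one. Chance flags about 1 in 20 groups for measured values, a rate that does not apply here: each of the 5 groups holds 2 or 3 libraries at 0 counts, where 1 library with counts stands apart by construction. Normal diet library 3 stood apart from the other normal diet libraries for Kap (4.18 CPM), Slc34a1 (0.409 CPM) and Slc5a2 (0.103 CPM, 3 counts). HS7 stood apart from the other high salt libraries for Slc5a12 (0.229 CPM, 11 counts) and Slc5a2 (0.200 CPM, 10 counts). The kidney groups held 3 libraries each and were not checked in this way.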

How the results depend on the processing

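Slc4a4 and Lrp2 stayed higher in kidney than in liver under the 11 alternatives; the other genes entered that test through kidney counts. The kidney and interaction counts of genes past the threshold stayed at 0 under the 15 and 19 alternatives. The liver diet count was 1 of 4 genes with an adjusted p in DESeq2 (Lrp2, background 6.94%). With 1 library left out it ranged from 0 to 2. The 2 were Kap and Lrp2, of 3 genes tested without normal diet library 3 (background 4.94%). Kap entered that test through the high salt libraries. The labels do not say whether the replicate numbers pair the kidney libraries. Same-numbered libraries had correlations of 0.486, 0.464 and -0.129 of their deviations, and differently numbered ones from -0.556 to 0.474. With 3 libraries per diet these values cannot decide whether the numbers pair them. With the replicate block 0 genes passed in kidney and the log2 fold change of Lrp2 was 0.0066. Kidney signs turned for 5 genes. Lrp2 had 0.00066 and 0.00067 with the deposited normalized values at pseudocounts of 1 and 0.1 (limma), 0.074 with the exon length offset, and values from -0.29 to 0.37 with 1 library left out (0.039 without high salt 2). Cubn had 0.033 with the offset and from -0.26 to 0.24 with 1 library left out (0.027 without high salt 2). Kap had from -0.44 to 0.12 (0.081 without normal diet 2, 0.096 without high salt 1). Slc9a3 had 0.018 without normal diet 1 and 0.023 without high salt 3, and Slc5a12 had 0.048 without high salt 3. In liver Slc4a4 had 0.14 without normal diet library 4. In the interaction Slc5a2 had 1.08 without HS7, and Slc4a4 had 0.012 without kidney high salt 3 and 0.0023 without normal diet liver library 2. Of 149 kidney values of single genes 134 kept their sign. The cause of these turns was not tested. Of depth, Slc4a4 and Lrp2 alone had at least 20 counts in every liver library.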
